A study of Mus musculus with 9 samples.

Results

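The genes described here are 9 components of Polycomb repressive complex 1 (PRC1), taken by name from a table of RNA-seq counts that holds 55228 genes: *Bmi1* and *Pcgf2*, *Ring1* and *Rnf2*, *Cbx2*, *Cbx7* and *Cbx8*, and *Phc1* and *Phc2*. The choice rests on what they encode, and its rule uses no measured value, but it was made with earlier results of these data known. All 9 passed the filter on low counts and were among the 15253 genes tested. The counts come from HC11 cells, an epithelial line from the mammary gland of a BALB/c mouse that can be induced to make milk proteins. There were 3 cultures each of the parental line (*WT*), of a line carrying *Vangl2* knockout 1 (*KD1*) and of a line carrying *Vangl2* knockout 2 (*KD2*). *Vangl2* encodes a transmembrane protein of the planar cell polarity pathway, and the comparison asks how the transcriptome differs once *Vangl2* is targeted.

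Each *KD* line was made by nucleofecting parental cells with a single guide RNA and a repair template carrying stop codons, and was grown up from a single colony, so each stands for 1 clone. All 9 cultures were undifferentiated and were kept in RPMI with fetal bovine serum, insulin and EGF. The sources used here do not say that the parental cells were nucleofected or cloned, and no cloned control line is analysed here, so the targeting and the cloning of a line cannot be told apart. Nothing in the labels says that the 3 cultures of a line came from separate thaws or derivations, so the p-values below measure the spread between cultures of a line.

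PRC1 is a chromatin complex that silences developmental genes and attaches ubiquitin to histone H2A. In its canonical form a RING protein (RING1 or RNF2) carries the ligase activity, a PCGF protein (BMI1 or PCGF2) pairs with it, a CBX protein reads the trimethyl mark that PRC2 leaves on histone H3, and a PHC protein lets complexes cluster. Members of each position are paralogs and can replace each other in the complex. In the mammary gland, BMI1 is known for holding back alveolar differentiation and for repressing the *Ink4* locus of cell cycle inhibitors.

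Depth was 19231428 to 28360592 counts per culture, and a floor of 3 counts corresponded to 0.0999 to 0.154 CPM, counts scaled to a library of 1000000. A chi-square over genes was used to compare replicates. In *KD2* it was 1.74 per degree of freedom between replicates 1 and 2, but 17.4 and 22.1 between either of them and replicate 3. In *WT* it was 3.38 between replicates 2 and 3, and 13.1 and 10.7 against replicate 1, whereas it was at most 1.81 between *KD1* cultures. *KD2* replicate 3 and *WT* replicate 1 therefore stood apart. Some results below are given with and without them, and the others include them. *Vangl2* itself was at 3.38, 3.96 and 4.20 CPM in *WT*, at 2.77, 1.89 and 2.78 in *KD1* and at 3.64, 3.93 and 4.43 in *KD2*. It was lower in *KD1* in edgeR's quasi-likelihood test, with p-values adjusted over all genes by Benjamini-Hochberg (log2 fold change -0.63, SE 0.17, adjusted p = 0.0058), and did not pass in *KD2* (0.05, SE 0.16, adjusted p = 0.81). An inserted stop codon need not lower a transcript, so a count over the whole gene checks neither label. By immunoblot, the paper reported almost no VANGL2 protein in *KD1* and a strongly reduced amount in *KD2*. The epithelial markers *Krt5*, *Krt14*, *Krt8*, *Krt18*, *Epcam* and *Cdh1* were all at 109 CPM or more in every culture. The leukocyte marker *Ptprc* and the adipocyte markers *Adipoq* and *Plin1* had at most 2 counts in any culture. *Cd68*, also listed for leukocytes, was at 2.98 to 8.26 CPM, with up to 210 counts. *Cdh5*, listed for endothelium with *Pecam1*, averaged 0.016 CPM in *WT*, 0.22 in *KD1* and 0.68 in *KD2*. The 6 epithelial markers summed to 4818 to 5389 CPM in *WT*, 5464 to 5607 in *KD1* and 2873 to 3564 in *KD2*. The 9 markers of other cells summed to 21.3 to 24.6, 19.9 to 22.7 and 29.1 to 30.4 CPM. The epithelial sum is carried by *Krt5* and *Krt14*, which fell in *KD2* by 0.96 and 0.90 on the log2 scale, as did *Epcam* and *Cdh1* (by 0.36 and 0.69), whereas *Krt8* rose (0.76, adjusted p = 7.40e-06) and *Krt18* did not pass (0.13, adjusted p = 0.16). In *KD1*, *Krt18*, *Epcam* and *Cdh1* rose (0.71, 0.31 and 0.37). Markers of other cells moved in opposed directions too. From *WT* to *KD1* the mean of *Col1a1* went from 7.03 to 0.571 CPM and that of *Col1a2* from 1.17 to 0, while *Pecam1* went from 2.16 to 4.91 and *Cd68* from 4.10 to 7.56. In *KD2* these 4 genes were at 4.38, 3.09, 0.919 and 4.02 CPM. *Pdgfra*, like *Col1a1* and *Col1a2* a fibroblast marker, averaged 7.96 CPM in *WT*, 8.40 in *KD1* and 16.4 in *KD2*. It did not pass in *KD1* (log2 fold change 0.07, adjusted p = 0.62) and rose in *KD2* (1.04, adjusted p = 1.89e-06). The lower epithelial sum in *KD2* and these marker changes run beside the values of the lines below, and their part in them was not tested. In bulk RNA, fewer cells of a kind and less RNA per cell cannot be told apart.

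In *KD1*, *Bmi1* and *Ring1* fell and *Cbx2* rose, while the other 6 members did not pass the test. In *KD2*, *Cbx7* rose and the other 8 did not pass. Thus 3 of 9 members passed in *KD1* at an adjusted p under 0.05, where 56.9% of all genes tested did. The 1 that rose and the 2 that fell stand beside 26.9% and 30.0% of all genes. In *KD2* 1 of 9 passed, upwards, where 67.2% of all genes passed, with 34.0% of all genes higher and 33.3% lower. No member moved 2-fold in either line, a size reached by 16.8% of genes in *KD1* and 21.2% in *KD2*. No member passed in both lines. Both comparisons use the same 3 *WT* cultures.

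BMI1 and PCGF2 fill the same place in canonical PRC1, next to the RING subunit. In GRCm38, *Bmi1* lies on the plus strand of chromosome 2, from 18677018 to 18686629, and *Pcgf2* on the minus strand of chromosome 11, from 97688823 to 97700497. *Ring1* lies on the minus strand of chromosome 17, from 34020792 to 34024680, and *Rnf2* on the minus strand of chromosome 1, from 151458004 to 151500955. Because *Bmi1* and *Ring1* fell together in *KD1* while the paralog of each did not pass, the 250 bases before the start of these 4 genes are shown, from the RefSeq promoter table of GRCm38.p6. They lie at chr2:18676768-18677017 (plus strand) for *Bmi1*, chr11:97699649-97699898 (minus) for *Pcgf2*, chr17:34024681-34024930 (minus) for *Ring1* and chr1:151500992-151501241 (minus) for *Rnf2*. No annotated exon overlaps them, and the *Pcgf2* window lies in an intron of a longer *Pcgf2* transcript. The *Rnf2* window, from 151500992, does not adjoin the annotated gene, whose first base on the minus strand is 151500955. The bases just after this window matched no annotated *Rnf2* transcript. Each is written 5′ to 3′ on the strand of its gene, and capitals mark the E-box CACGTG and the GC box GGGCGG on either strand, overlapping matches included.
Bmi1: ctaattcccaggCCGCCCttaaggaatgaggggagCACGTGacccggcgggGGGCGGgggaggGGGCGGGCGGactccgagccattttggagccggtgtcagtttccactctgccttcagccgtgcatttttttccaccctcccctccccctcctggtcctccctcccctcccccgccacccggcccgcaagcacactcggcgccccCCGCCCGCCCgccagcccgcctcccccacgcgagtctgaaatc
Pcgf2: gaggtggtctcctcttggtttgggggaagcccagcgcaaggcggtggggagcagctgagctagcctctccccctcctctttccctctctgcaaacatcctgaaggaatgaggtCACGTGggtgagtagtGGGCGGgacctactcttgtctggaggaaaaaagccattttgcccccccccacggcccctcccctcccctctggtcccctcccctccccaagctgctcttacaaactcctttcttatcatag
Ring1: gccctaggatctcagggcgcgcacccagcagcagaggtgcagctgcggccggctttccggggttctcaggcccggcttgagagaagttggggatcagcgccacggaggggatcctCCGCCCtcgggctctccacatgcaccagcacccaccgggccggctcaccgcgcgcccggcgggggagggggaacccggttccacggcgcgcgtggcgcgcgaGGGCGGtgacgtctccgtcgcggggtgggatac
Rnf2: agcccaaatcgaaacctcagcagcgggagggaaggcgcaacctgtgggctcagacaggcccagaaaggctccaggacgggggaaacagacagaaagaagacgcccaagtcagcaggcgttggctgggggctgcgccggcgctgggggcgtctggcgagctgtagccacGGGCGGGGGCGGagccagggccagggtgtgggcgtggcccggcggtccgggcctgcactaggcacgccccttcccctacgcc

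The E-box was found once each in the *Bmi1* and *Pcgf2* windows and not in those of *Ring1* and *Rnf2*. It is held by 6.02% of the 32851 promoter windows of this length in the table. GC boxes numbered 6 in the *Bmi1* window, 1 in *Pcgf2*, 2 in *Ring1* and 2 in *Rnf2*, and 32.7% of all windows hold at least 1. The CRE TGACGTCA (1.55% of all windows), the CCAAT box CCAAT (33.8%) and the STAT site TTCNNNGAA (7.02%) were searched on both strands too and were not found in these 4 windows. GC content was 70.4% in the *Bmi1* window, 73.6% in *Ring1*, 70.4% in *Rnf2* and 59.6% in *Pcgf2*, against a median of 52.4%. By presence or absence, none of the motifs searched was in both genes that fell and in neither paralog. The part of these promoters in the falls was not tested. A match of letters describes the sequence and is no measure of binding.

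*Bmi1* was measured at 153, 140.5 and 148 CPM in the *WT* cultures. In *KD1* it was at 82.3, 81.2 and 80.1 CPM. In *KD2* it was at 158, 168 and 126 CPM. Every *KD1* culture was below every *WT* and *KD2* culture, and the *KD1* cultures lay within a few CPM of each other. The *KD2* cultures spanned the *WT* range, with replicate 3 below it and the others above. *Bmi1* fell in *KD1* (log2 fold change -0.86, SE 0.088, adjusted p = 1.55e-06). It did not pass in *KD2* (0.03, 95% interval -0.15 to 0.22, adjusted p = 0.76). Without *KD2* replicate 3, *Bmi1* was higher in *KD2* than in *WT* (0.17, adjusted p = 0.0028). Without *WT* replicate 1 the fall in *KD1* was -0.83 (adjusted p = 1.88e-05). The direct comparison of the lines put *KD2* above *KD1* by 0.89 (SE 0.088, adjusted p = 6.72e-07). Of the windows of 50 bases in *Bmi1* exons, 16.7% also occur in *Gm5946* and AC114652.1, and *Gm5946* held at most 7 counts in any culture beside 1985 to 5032 for *Bmi1*.

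*Pcgf2*, the paralog also known as *Mel18*, was at 39.8, 40.1 and 42.9 CPM in *WT*, at 44.0, 40.9 and 41.4 in *KD1* and at 38.8, 40.4 and 49.6 in *KD2*. The lines overlapped throughout, and *KD2* replicate 3 was the highest of the 9 cultures. Its log2 fold change was 0.04 in *KD1* (95% interval -0.14 to 0.22, adjusted p = 0.71) and 0.07 in *KD2* (-0.12 to 0.25, adjusted p = 0.51). The data thus bound any change of *Pcgf2* in either line to well under the fall of *Bmi1* in *KD1*.

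**Figure D1:**
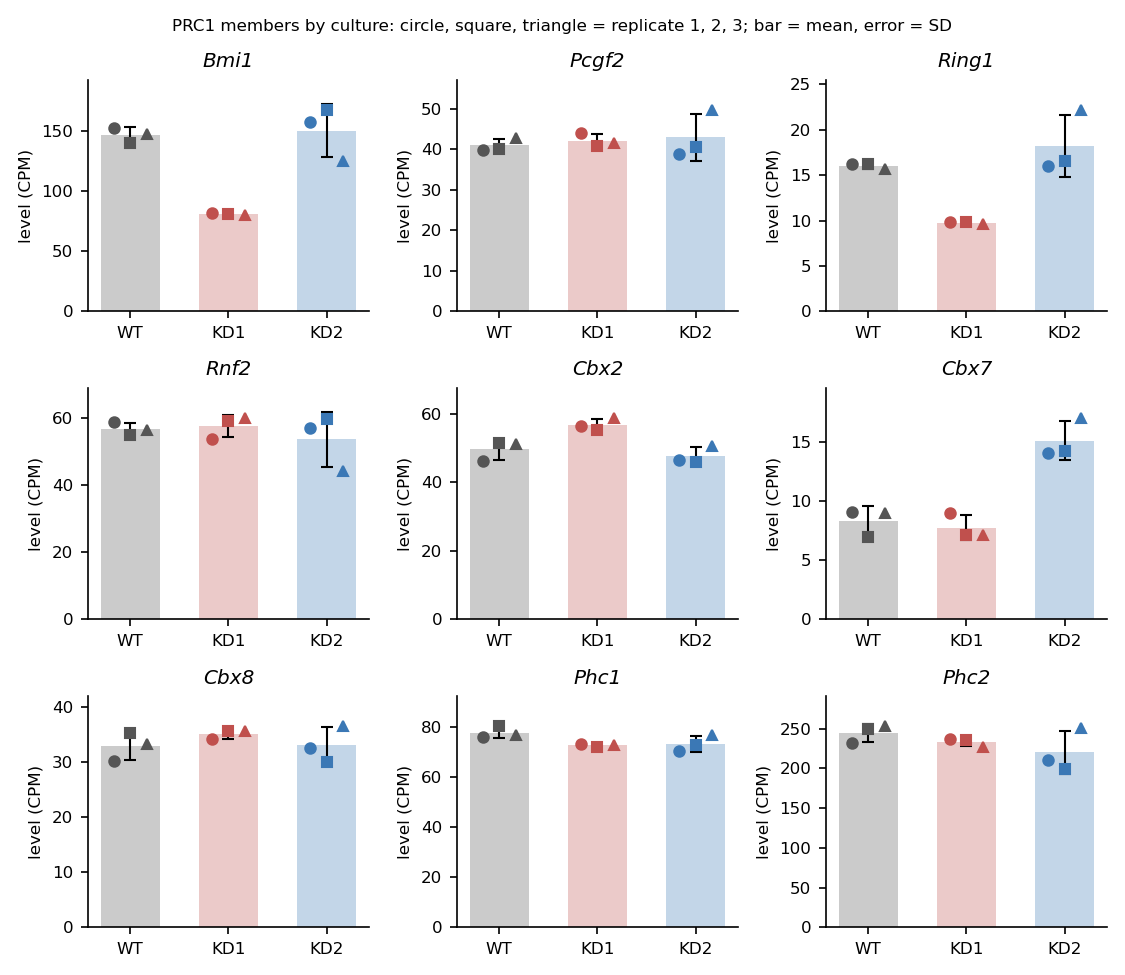
Level of each of the 9 PRC1 members in CPM (vertical axes from 0) in *WT*, *KD1* and *KD2*. Points are single cultures, bars their mean and error bars the SD (n = 3). *Bmi1* and *Ring1* are low in all 3 *KD1* cultures and *Cbx7* is high in all 3 *KD2* cultures. *KD2* replicate 3 (triangle) sits away from the other *KD2* cultures, on the log2 scale most for *Bmi1*, *Ring1*, *Rnf2* and *Pcgf2*.

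*Ring1* and *Rnf2* encode the alternative E3 ligase subunits, of which RNF2 (RING1B) is generally the main source of H2A ubiquitin. *Ring1* was at 16.2, 16.2 and 15.7 CPM in *WT*, at 9.78, 9.83 and 9.64 in *KD1* and at 16.0, 16.5 and 22.1 in *KD2*. All *KD1* cultures were below all others, and *KD2* replicate 3 stood above the rest. *Ring1* fell in *KD1* by 0.72 on the log2 scale (SE 0.11, adjusted p = 1.04e-04) and did not pass in *KD2* (0.18, 95% interval -0.06 to 0.41, adjusted p = 0.17). Without *KD2* replicate 3 the *KD2* value was 0.05 (adjusted p = 0.55), and without *WT* replicate 1 the *KD1* value was -0.71 (adjusted p = 6.20e-04). *KD2* exceeded *KD1* by 0.89 (SE 0.11, adjusted p = 7.45e-06), or by 0.74 without *KD2* replicate 3 (adjusted p = 8.89e-08).

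*Rnf2* was at 58.6, 54.8 and 56.3 CPM in *WT*, at 53.8, 59.1 and 59.9 in *KD1* and at 57.1, 59.7 and 44.3 in *KD2*. The lines overlapped, and *KD2* replicate 3 was the lowest culture, the reverse of its place for *Ring1*. The log2 fold change was 0.03 in *KD1* (95% interval -0.18 to 0.23, adjusted p = 0.84) and -0.07 in *KD2* (-0.27 to 0.13, adjusted p = 0.51). Exons of *Trmt1l* on the other strand overlap 3.83% of the *Rnf2* exon bases, and no source used here states that the counting used strand.

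The CBX subunits give canonical PRC1 its reader of trimethylated H3. *Cbx7*, which in stem cells keeps the pluripotent form of the complex, was at 9.07, 6.92 and 8.98 CPM in *WT*, at 8.93, 7.16 and 7.14 in *KD1* and at 14.0, 14.2 and 16.97 in *KD2*. Every *KD2* culture was above every culture of the other lines, and *KD1* lay within the *WT* range. *Cbx7* rose in *KD2* by 0.86 on the log2 scale (SE 0.13, adjusted p = 4.38e-05). The rise was 0.80 without *KD2* replicate 3 (adjusted p = 1.43e-05) and 0.92 without *WT* replicate 1 (adjusted p = 1.28e-04). In *KD1* the value was -0.09 (95% interval -0.39 to 0.20, adjusted p = 0.58), and *KD2* exceeded *KD1* by 0.95 (SE 0.13, adjusted p = 1.30e-05). *Cbx7* was the member with the fewest counts, 173 to 427 per culture, and its intervals were the widest of the 9. It lies on the minus strand of chromosome 15, from 79915807 to 79971119, and 1.54% of its exon bases overlap *Apobec3* on the other strand.

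*Cbx2* and *Cbx8* lie next to each other on chromosome 11, *Cbx2* from 119022962 to 119031270 on the plus strand and *Cbx8* from 119036305 to 119040969 on the minus strand, and both encode CBX proteins of more differentiated cells. *Cbx2* was at 46.1, 51.6 and 51.3 CPM in *WT*, at 56.3, 55.2 and 58.7 in *KD1* and at 46.5, 46.0 and 50.6 in *KD2*. The *KD1* cultures were above all others by a small margin. *Cbx2* rose in *KD1* by 0.19 (SE 0.065, adjusted p = 0.022), a call that was lost without *WT* replicate 1 (0.14, adjusted p = 0.091), *KD1* replicate 1 (adjusted p = 0.052) or *KD1* replicate 3 (adjusted p = 0.085). It did not pass in *KD2* (-0.06, 95% interval -0.20 to 0.08, adjusted p = 0.44), and *KD2* was below *KD1* by a log2 difference of -0.25 (SE 0.065, adjusted p = 0.0036). That last call was lost when libraries were scaled by size alone, a scaling that moved the median of all genes by 0.13 in this comparison.

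*Cbx8* ranged from 30.2 to 35.3 CPM in *WT*, from 34.1 to 35.7 in *KD1* and from 30.1 to 36.5 in *KD2*, and the lines overlapped. Its log2 fold change was 0.09 in *KD1* (95% interval -0.08 to 0.26, adjusted p = 0.36) and -0.0019 in *KD2* (-0.18 to 0.17, adjusted p = 0.99). *KD2* was not separated from *KD1* either (-0.09, adjusted p = 0.32), though it was lower without *KD2* replicate 3 (-0.16, adjusted p = 0.033).

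**Figure D2:**
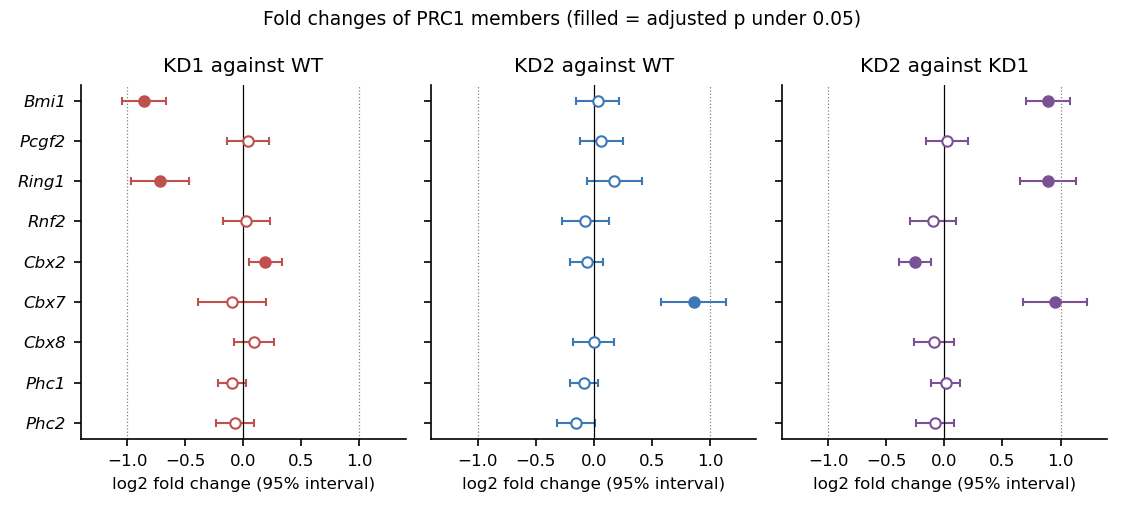
Log2 fold change of each PRC1 member with its 95% interval in *KD1* against *WT*, *KD2* against *WT* and *KD2* against *KD1*, from edgeR's fit of all 9 cultures; filled points passed at an adjusted p under 0.05 and dotted lines mark a 2-fold change. *Bmi1* (-0.86) and *Ring1* (-0.72) stand apart in the first panel, *Cbx7* (0.86) in the second, and all of them again in the third.

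The PHC subunits carry the SAM domain through which PRC1 complexes associate. *Phc2*, the member with the highest counts, was at 232, 249 and 253 CPM in *WT*, at 237, 235 and 227 in *KD1* and at 210, 199.6 and 251 in *KD2*. Replicates 1 and 2 of *KD2* were below every *WT* culture and replicate 3 was inside the *WT* range. *Phc2* did not pass in *KD1* (-0.07, 95% interval -0.23 to 0.10, adjusted p = 0.46) or in *KD2* (-0.15, -0.32 to 0.01, adjusted p = 0.093). Without *KD2* replicate 3 it was lower in *KD2* by a log2 difference of -0.23 (adjusted p = 3.40e-04).

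*Phc1* ranged from 76.0 to 80.3 CPM in *WT*, from 71.8 to 73.2 in *KD1* and from 70.3 to 76.6 in *KD2*. The *KD1* cultures all lay below the *WT* cultures, but the log2 fold change of -0.10 (95% interval -0.22 to 0.02) did not pass (adjusted p = 0.16). The value in *KD2* was -0.09 (-0.21 to 0.04, adjusted p = 0.19). *Phc1* lies on the minus strand of chromosome 6, from 122317731 to 122340561, and *Phc2* on the plus strand of chromosome 4, from 128654702 to 128752881.

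Set against all genes, most members changed little. The median absolute log2 fold change of the 9 was 0.09 in *KD1* and 0.07 in *KD2*, where the medians over all 15253 genes were 0.35 and 0.46. Those genes were not matched to the members in level, here or in the shares that follow. The changes of 7 members in *KD1* and of 8 in *KD2* were smaller than the median gene's. *Bmi1* in *KD1* moved more than 78.6% of genes, *Ring1* more than 73.8% and *Cbx7* in *KD2* more than 73.5%, whereas *Cbx2*, the next in *KD1*, moved more than 30.2%. Over the members that did not pass, the 95% intervals together ran from -0.39 to 0.26 in *KD1* (6 members) and from -0.32 to 0.41 in *KD2* (8 members). Cultures of the compared lines did not overlap for 4 members in *KD1* (*Bmi1*, *Ring1*, *Cbx2* and *Phc1*), against 68.8% of all genes, and for 1 member in *KD2* (*Cbx7*), against 67.9%. Between the lines themselves 4 members passed, *Bmi1*, *Ring1* and *Cbx7* higher and *Cbx2* lower in *KD2*, where 67.8% of all genes passed, 34.8% upwards and 33.0% downwards. These 4 were also those whose *KD1* and *KD2* cultures did not overlap, against 71.6% of all genes. None differed 2-fold, as 23.3% of all genes did, though *Bmi1* reached a log2 difference of 1.01 without *KD2* replicate 3, *Cbx7* reached 1.06 without *KD1* replicate 1, and with library size alone *Bmi1*, *Ring1* and *Cbx7* stood at 1.02, 1.02 and 1.08.

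**Figure D3:**
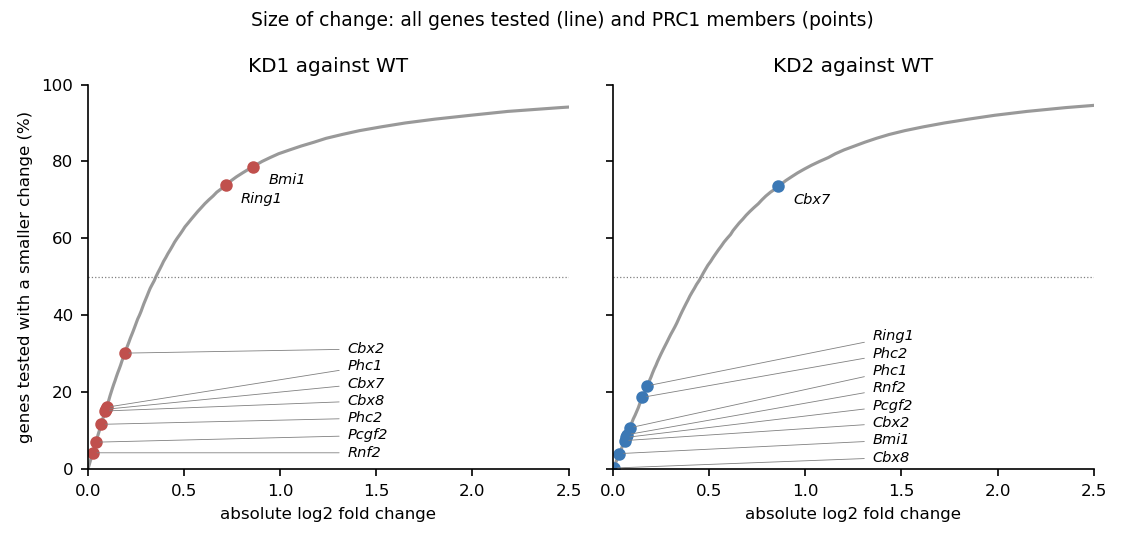
Share of the 15253 genes with a smaller absolute log2 fold change (vertical axis, %) against the size of the change, for *KD1* and *KD2* against *WT*; the line is all genes and points are the PRC1 members. *Bmi1*, *Ring1* and *Cbx7* lie above 73% in the line where each passed, and 7 members in *KD1* and 8 in *KD2* lie under the dotted line at 50%.

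Levels can be set against each other only per length of exon. In *WT*, *Bmi1* (37.0 ± 1.59 CPM per kb, SD, n = 3) and *Phc2* (34.6 ± 1.59) were the highest of the 9 and overlapped, at the 89.6th and 88.6th percentile of genes tested. *Phc1* (14.7 ± 0.430) and *Rnf2* (13.7 ± 0.465) followed, then *Cbx2* (11.7 ± 0.725) and *Pcgf2* (11.6 ± 0.474), which did not differ beyond their spread. Below these came *Cbx8* (8.97 ± 0.696), *Ring1* (4.94 ± 0.0926) and, at the 29.8th percentile, *Cbx7* (1.28 ± 0.187). In *KD1*, *Bmi1* (20.4 ± 0.285 CPM per kb) was below *Phc2* (33.0 ± 0.712), and *Ring1* (3.01 ± 0.0307) and *Cbx7* (1.19 ± 0.159) remained the lowest. In *KD2*, *Bmi1* (37.8 ± 5.53) and *Phc2* (31.2 ± 3.83) again overlapped, and *Cbx7* (2.32 ± 0.254) was still the lowest. This order rests on the union of exons as the length. With the longest transcript, *Phc2* was above *Bmi1* in every line, at 61.9 ± 2.85 against 40.9 ± 1.76 CPM per kb in *WT*, 59.0 ± 1.27 against 22.6 ± 0.316 in *KD1* and 55.8 ± 6.86 against 41.8 ± 6.11 in *KD2*, and *Pcgf2* (16.5 ± 0.672) was above *Cbx2* (13.04 ± 0.810) in *WT*, while *Ring1* and *Cbx7* stayed the lowest.

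The members were also read as the share each paralog takes of its position, as a percentage of the summed CPM per kb. For CBX the share is of the 3 members alone and not of the position. *Bmi1* made up 76.1% ± 1.05 of the *Bmi1* and *Pcgf2* sum in *WT*, 63.1% ± 0.694 in *KD1* and 75.4% ± 5.35 in *KD2* (SD, n = 3), and the sum itself was 48.6 ± 1.67, 32.4 ± 0.716 and 50.003 ± 4.03 CPM per kb. *Ring1* made up 26.5% ± 0.728 of the RING sum in *WT*, 17.8% ± 0.935 in *KD1* and 30.4% ± 7.34 in *KD2*, and that sum was 18.7 ± 0.483, 16.96 ± 0.796 and 18.6 ± 1.00 CPM per kb. The RING sum thus moved less in *KD1* than the *Bmi1* and *Pcgf2* sum, *Ring1* being the lower of its pair and *Bmi1* the higher. Among the 3 CBX members, *Cbx2* took 53.2% ± 0.281 of their sum in *WT*, 55.3% ± 0.733 in *KD1* and 49.8% ± 1.21 in *KD2*. *Cbx8* took 40.9%, 39.7% and 39.9%, and *Cbx7* 5.89% ± 1.10, 4.96% ± 0.701 and 10.3% ± 0.428. The sum of the 3 was 21.9 ± 1.28 CPM per kb in *WT*, 24.1 ± 0.458 in *KD1* and 22.5 ± 1.71 in *KD2*. This sum leaves out *Cbx6*, which is not one of the 9. *Cbx6* was at 15.2 ± 0.624 CPM per kb in *WT*, 11.7 ± 0.0581 in *KD1* and 17.3 ± 0.976 in *KD2*. The PHC position, here with *Phc3*, which is not one of the 9, kept its order in all lines, with *Phc2* at 64.3%, 64.5% and 61.9% *Phc1* at 27.3%, 26.8% and 27.6% and *Phc3* at 8.42%, 8.74% and 10.5%. Shares depend on the exon length used: with the longest transcript, *Bmi1* took 71.3% in *WT* and 57.2% in *KD1*.

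**Figure D4:**
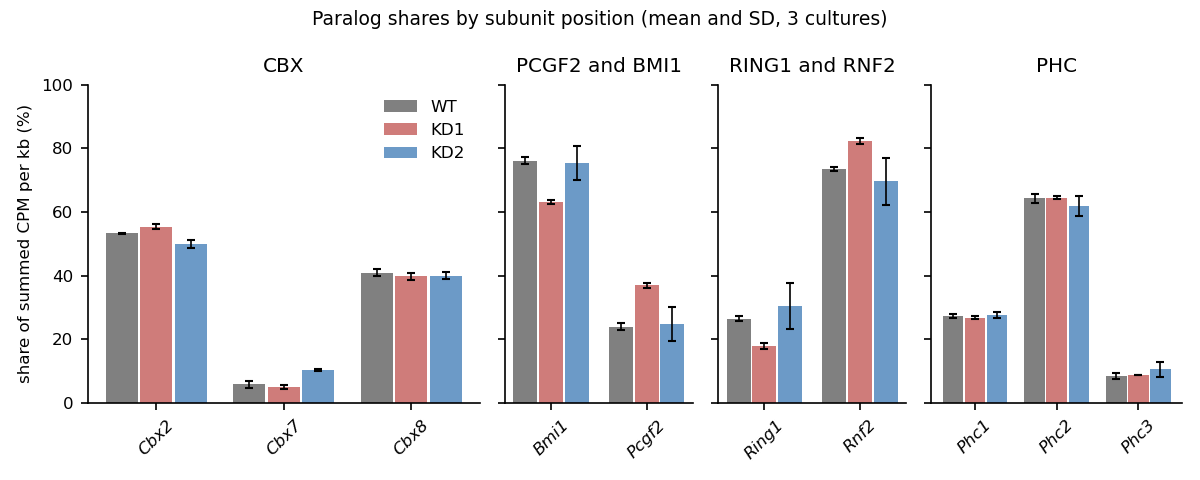
Share of each paralog in the summed CPM per kb of its subunit position (vertical axis, %; for CBX, of the 3 members), as mean and SD over 3 cultures of *WT*, *KD1* and *KD2*. *Bmi1* falls from 76.1% to 63.1% and *Ring1* from 26.5% to 17.8% in *KD1*; *Cbx7* rises from 5.89% to 10.3% of the 3 CBX members in *KD2*, and the PHC shares are alike in the lines.

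A log2 ratio of the counts of a pair within a culture does not depend on how libraries are scaled. The ratio of *Bmi1* to *Pcgf2* was 1.94, 1.81 and 1.79 in *WT*, 0.90, 0.99 and 0.95 in *KD1* and 2.02, 2.05 and 1.34 in *KD2*. The ratio of *Rnf2* to *Ring1* was 1.86, 1.76 and 1.84 in *WT*, 2.46, 2.59 and 2.63 in *KD1* and 1.83, 1.85 and 1.00 in *KD2*. For both pairs *KD1* lay apart from *WT* and *KD2* overlapped or straddled *WT*, with *KD2* replicate 3 the outlying culture each time. The ratio of *Cbx2* to *Cbx7* was 2.34, 2.89 and 2.51 in *WT*, 2.65, 2.94 and 3.04 in *KD1* and 1.73, 1.69 and 1.58 in *KD2*, so that here *KD2* lay apart. *Phc2* to *Phc1* overlapped in every comparison. For each ratio whose lines did not overlap the two-sided exact permutation test gave p = 0.1, the smallest that 3 cultures against 3 allow, so these ratios cannot pass a threshold of 0.05.

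Other genes of the pathway were read from lists that were chosen by function, also with earlier results of these data known. Of 4 other subunits of canonical PRC1, 1 was lower in *KD1* (adjusted p under 0.05), where 30.0% of all genes were. In *KD2*, 2 were higher, where 34.0% of all genes were. The list's median change was -0.01 (log2) in *KD1* and 0.20 in *KD2*, beside -0.03 and 0.01 over all genes. *Cbx6* encodes a further CBX paralog. *Cbx6* fell in *KD1* (-0.38, SE 0.059, adjusted p = 8.66e-05) and was higher in *KD2* (0.18, SE 0.058, adjusted p = 0.014), the latter not without *WT* replicate 1 (0.15, adjusted p = 0.060). *Scml2*, which encodes a SAM domain partner of PRC1, was at 4.69 to 5.66 CPM in *WT* and *KD1* and at 11.5, 14.3 and 8.31 CPM in *KD2*, a rise of 1.13 (SE 0.17, adjusted p = 4.22e-05). That rise ran from 0.93 to 1.33 over the 16 alternatives. *Phc3* did not pass in *KD1* (-0.02, adjusted p = 0.91) or *KD2* (0.21, adjusted p = 0.068), and in *KD2* it passed without *KD2* replicate 3 (0.36, adjusted p = 2.15e-05). *Scmh1* did not pass in *KD1* (0.03, adjusted p = 0.72) or in *KD2* (-0.13, adjusted p = 0.072).

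Variant PRC1 pairs the same RING subunits with other PCGF proteins and with RYBP or YAF2 in place of CBX and PHC. Of 27 genes for its subunits, 3 were higher and 9 lower in *KD1*, where 26.9% and 30.0% of all genes were, and 4 were higher and 17 lower in *KD2*, where 34.0% and 33.3% were. The median of the 27 was -0.04 (log2) in *KD1* and -0.30 in *KD2*. *Bcor*, the scaffold of the PCGF1 complex, was at 50.8 to 55.4 CPM in *WT*, at 47.4 to 48.6 in *KD1* and at 7.12 to 7.48 in *KD2*. The fall in *KD2* was a log2 fold change of -2.88 (SE 0.069, adjusted p = 1.14e-12), while the value in *KD1* was -0.16 (adjusted p = 0.035) and lost its call under most alternatives, such as leaving out *WT* replicate 1 (-0.13, adjusted p = 0.11). *Bcorl1*, its paralog, was at 15.2 to 18.9 CPM in *WT* and at 40.5 to 41.2 in *KD1*, a rise of 1.24 (SE 0.079, adjusted p = 9.39e-09), and it rose by 0.33 in *KD2* (adjusted p = 0.0025). *Kdm2b*, which brings the PCGF1 complex to CpG islands, was at 61.5 to 69.6 CPM in *WT*, 62.1 to 63.4 in *KD1* and 30.8 to 33.7 in *KD2*. It fell in *KD2* by 1.03 on the log2 scale (SE 0.064, adjusted p = 8.93e-09) and did not pass in *KD1* (-0.06, adjusted p = 0.46). *Auts2*, a subunit of the PCGF3 and PCGF5 complexes known for recruiting activators, fell in *KD1* (-1.55, SE 0.060, adjusted p = 4.83e-11) and in *KD2* (-0.97, SE 0.059, adjusted p = 6.11e-09).

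The ubiquitin that PRC1 places on H2A is removed by deubiquitinases, among them the complex of BAP1 with ASXL and MBD proteins. Of 13 genes for these enzymes and their partners 12 passed the filter on counts, and of these 2 passed upwards and 5 downwards in *KD1*, where 26.9% and 30.0% of all genes did. In *KD2* 2 passed upwards and 8 downwards, where 34.0% and 33.3% of all genes did. Their median was -0.08 (log2) in the first line and -0.29 in the second. *Bap1* fell in both lines, with a log2 fold change of -0.22 in *KD1* (SE 0.061, adjusted p = 0.0075, or 0.051 without *KD1* replicate 3) and of -0.91 in *KD2* (SE 0.062, adjusted p = 2.03e-08). *Mbd6* fell in both, with a log2 fold change of -1.01 in *KD1* (SE 0.082, adjusted p = 1.37e-07) and of -0.58 in *KD2* (SE 0.081, adjusted p = 2.38e-05). *Mbd5* rose in *KD2* (0.79, SE 0.096, adjusted p = 6.22e-06) and did not pass in *KD1* (0.07, adjusted p = 0.55).

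**Figure D5:**
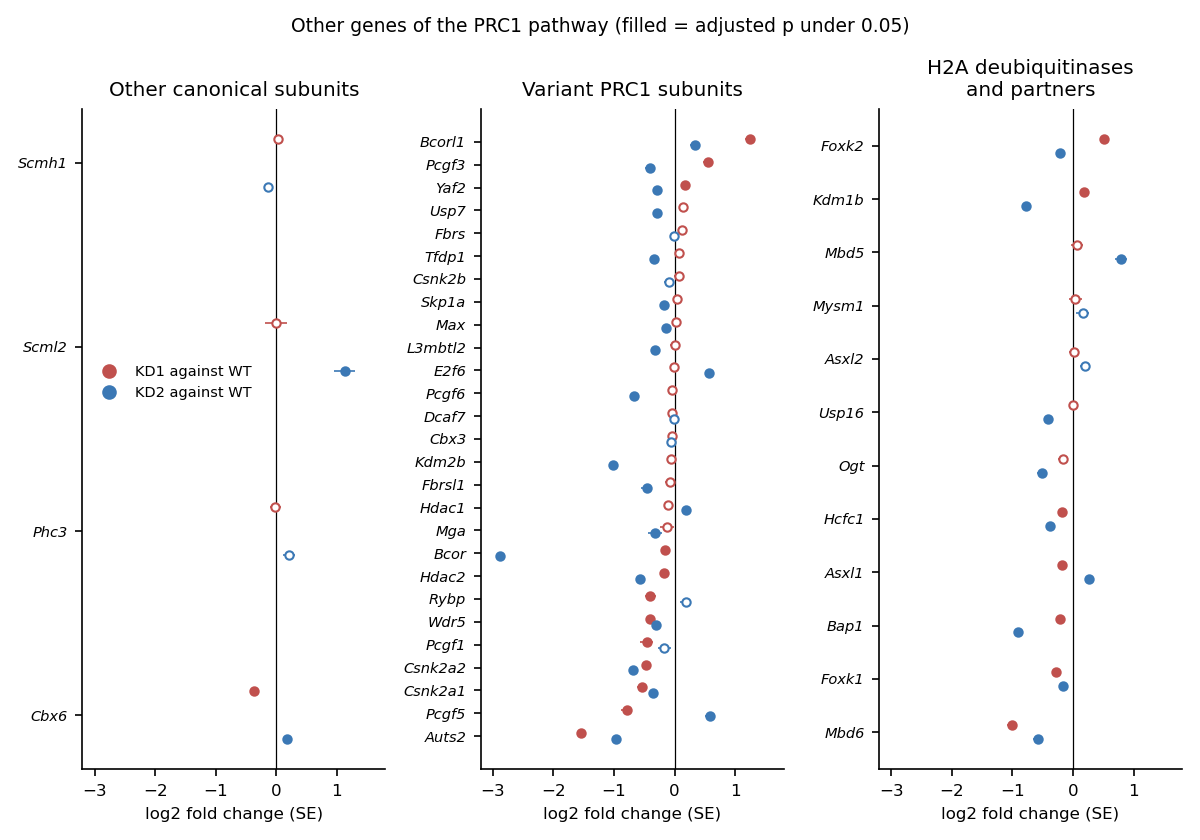
Log2 fold change against *WT* (horizontal axes, bars are SE) of the other canonical PRC1 subunits, the variant PRC1 subunits and the H2A deubiquitinases with their partners, for *KD1* in red and *KD2* in blue; filled points passed at an adjusted p under 0.05. *Bcor* in *KD2* (-2.88) lies farthest from 0, and *Auts2* and *Mbd6* lie below 0 in both lines.

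The *Ink4* locus, *Cdkn2a* and *Cdkn2b*, is a long known target of BMI1. *Cdkn2a* was at 85.4, 90.7 and 96.9 CPM in *WT*, at 58.8, 62.3 and 57.4 in *KD1* and at 103, 100.3 and 143 in *KD2*. The *KD1* cultures were below all others, as they were for *Bmi1*, and the *KD2* cultures were above *WT*. *Cdkn2a* fell in *KD1* (-0.61, SE 0.11, adjusted p = 3.64e-04) and was higher in *KD2* (0.34, SE 0.11, adjusted p = 0.015, or 0.062 without *WT* replicate 1). Without *KD2* replicate 3, its highest culture, the *KD2* value was 0.18 (adjusted p = 0.0064). These counts do not separate the transcripts of the p16 and p19 proteins, which share exons. *Cdkn2b* was at 7.32 to 9.96 CPM in *WT*, 7.72 to 9.03 in *KD1* and 16.7 to 17.9 in *KD2*, a rise in *KD2* of 0.97 (SE 0.11, adjusted p = 2.85e-06), and it did not pass in *KD1* (-0.05, adjusted p = 0.76).

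The genes whose pattern over the 9 cultures was most like that of *Bmi1* were found by the Euclidean distance between centred log2 CPM values among 11320 genes. The nearest was *Sesn3* at a distance of 0.16, followed by *Ncoa1* at 0.18 and *Pcmtd1* at 0.19. *Sesn3* was at 109 ± 2.66 CPM in *WT*, 58.5 ± 1.76 in *KD1* and 107 ± 11.6 in *KD2* (SD, n = 3), *Ncoa1* at 47.7 ± 2.16, 26.4 ± 0.635 and 48.8 ± 4.46, and *Pcmtd1* at 88.0 ± 2.67, 47.8 ± 1.94 and 84.5 ± 13.7. None of them is a neighbour of *Bmi1*: they lie on chromosomes 9, 12 and 1.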

How the data were processed

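RNA was sequenced from 9 HC11 cultures, grouped as *WT*, *KD1* and *KD2* (n = 3) by the sample labels. The values the authors deposited are raw counts, whole reads assigned to a gene with no scaling, made by trimming with fastp, mapping to GRCm38 with HISAT2 and counting with featureCounts of Subread. How reads matching several genes were counted, and whether strand was used, is not given in the sources used here. Depth was 19231428 to 28360592 counts per culture; floors cover counting error only.

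The 15253 genes left by edgeR's filterByExpr were fitted together (edgeR 4.0.16 in R 4.3.3, quasi-likelihood test, TMM scaling, all 9 cultures, no block), with Benjamini-Hochberg adjustment over all of them. A member passes at an adjusted p under 0.05, and a 2-fold call also needs an absolute log2 fold change above 1. CPM use TMM-adjusted library sizes and are given per kb of exon (GENCODE M21) where stated. The fit was tested on simulated data. One gene of these lists is not reported here. The members and lists were chosen with earlier results of these data known. From the other lists the text names the canonical subunits, the *Ink4* genes, any gene changed 2-fold in either line and up to 3 of the largest changes of a list. Ratios used 0.5 added to each count and exact permutation tests. Promoter windows came from RefSeq (GRCm38.p6) and matched 8 of the 9 members, *Cbx2* not among them. Same-numbered cultures of different lines were checked for shared deviations, and the numbers did not pair the cultures. Alternatives were DESeq2 1.42.0, size factors by median of ratios, library size alone, no filter beyond 1 count, at least 10 counts in every culture, only the 6 cultures compared, a replicate block and each culture left out. The other lists were recomputed under the same alternatives, and member levels with the longest transcript as length, choices made after seeing the data. Replicates differed by more than counting noise (chi-square of 1.37 or more per degree of freedom), so none was merged.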

Additional observations from a re-analysis of the deposited data

Results flagged for a closer look

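The change from *WT* differed between the *KD* lines for 16 of the genes named, by the direct comparison of *KD2* with *KD1* in edgeR's fit (adjusted p under 0.05; 67.8% of all genes tested differed so). The variant and deubiquitinase genes were named for large changes against *WT* in these same data. The count of 16 is therefore no result about the lists and cannot be weighed against that share. Values are the log2 fold change in *KD2* minus that in *KD1*. Among the members, *Bmi1* differed by 0.89, *Ring1* by 0.89 and *Cbx7* by 0.95, all higher in *KD2*, and *Cbx2* by -0.25. Among the other canonical subunits the difference was 0.56 for *Cbx6*, 1.14 for *Scml2* and -0.16 for *Scmh1*. Variant subunits differed by -0.97 for *Kdm2b*, -2.72 for *Bcor*, -0.91 for *Bcorl1* and 0.57 for *Auts2*. For the deubiquitinase genes it was -0.69 for *Bap1*, 0.72 for *Mbd5* and 0.43 for *Mbd6*, and at the *Ink4* locus 0.95 for *Cdkn2a* and 1.01 for *Cdkn2b*. *Auts2* and *Mbd6* fell in both lines and less in *KD2*, and *Bap1* fell in both and more in *KD2*. The *Scmh1* difference was lost when any *KD1* culture, or *KD2* replicate 1 or 2, was left out.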

How the results depend on the processing

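The falls of *Bmi1* and *Ring1* in *KD1* and the rise of *Cbx7* in *KD2* kept their direction and their call under all 16 alternatives of each. Over the 432 recomputed changes of members, 394 kept direction and side of the threshold, 4 lost their call, 6 gained one and 28 changed sign, and over the 624 of the genes named from the other lists 573, 22, 12 and 17 did so. None of the changes that turned sign passed the test in the fit reported. The members past the test in *KD2* numbered 2 with library size alone (*Ring1* added), 2 with no filter on low counts (*Phc2* added) and, over the cultures left out in turn, 1 to 3, the 3 without *KD2* replicate 3. In *KD1* they numbered 2 to 3 and between the lines 4 to 6 over the cultures left out. Genes called past 2-fold were 2568 in *KD1*, 3235 in *KD2* and 3556 between the lines, and 1319, 1698 and 1914 with at least 10 counts in every culture, where fewer genes were tested. Library size alone moved the median of all genes by 0.11 in *KD2* against *WT* and by 0.13 between the lines. The values that changed sign were, in *KD2* against *WT*, with library size alone *Cbx2* 0.050, *Cbx8* 0.11, *Rnf2* 0.038 and *Phc1* 0.023, with at least 10 counts *Cbx2* 0.011 and *Cbx8* 0.069, and for *Cbx8* also 0.0092 with median-of-ratios factors and 0.0046 with the 6 cultures compared. Between the lines they were, with library size alone, *Cbx8* 0.033, *Rnf2* 0.028 and *Phc2* 0.043, with no filter *Pcgf2* -0.016 and *Phc1* -0.031, and for *Phc1* -0.0020 with median-of-ratios factors and -0.0091 with DESeq2. In *KD1* against *WT*, *Phc3* and *Scml2* were at 0.0077 and 0.013 with median-of-ratios factors, 0.021 and 0.025 with at least 10 counts and 0.026 and 0.031 with the 6 cultures compared, and *Scml2* at 0.0029 with DESeq2. With each culture left out, changes whose sign turned ranged in *KD1* from -0.053 to 0.049 (*Phc3*), -0.029 to 0.085 (*Scmh1*), -0.057 to 0.069 (*Scml2*), -0.073 to 0.015 (*Kdm2b*) and -0.15 to 0.089 (*Cdkn2b*). In *KD2* they ranged from -0.064 to 0.073 (*Cbx8*), -0.049 to 0.17 (*Bmi1*), -0.018 to 0.13 (*Pcgf2*) and -0.15 to 0.073 (*Rnf2*), and between the lines from -0.080 to 0.090 (*Pcgf2*), -0.017 to 0.036 (*Phc1*) and -0.18 to 0.027 (*Rnf2*). The cause of these turns was not tested.

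The replicate numbers did not pair the cultures: same-numbered cultures of different lines had deviations that correlated at -0.07 to 0.08, and 0 of 9 such pairs was above 0.1. With a replicate block, 3, 1 and 4 members passed in the 3 comparisons, as without it, and 2560, 3227 and 3552 genes were called. Among the genes named from the other lists, the block ended the call of *Bcor* in *KD1* (adjusted p = 0.056) and gave one to *Phc3* in *KD2* against *WT* (adjusted p = 0.033) and against *KD1* (adjusted p = 0.026). Of the shares, 17 of 30 moved by more than 1 SD with the longest transcript as length, and 0 of 126 ratios moved. With 3 cultures a line, the depth and spread gave members standard errors of 0.056 to 0.14 on the log2 scale.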

Other observations

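*Commd3*, the gene next to *Bmi1*, counted 969 to 990 reads in the *KD1* cultures and was lower there too, by a log2 fold change of -0.46 (SE 0.058, adjusted p = 1.24e-05), but not past the threshold in *KD2* (-0.07, adjusted p = 0.30). The 12 genes tested within 2 Mb of *Bmi1* had a median (log2) of -0.42 in *KD1* and 0.48 in *KD2*, where chromosome 2 as a whole had medians of -0.16 and 0.14 over 1131 genes. Over the 124 genes within 2 Mb of *Ring1* the medians were -0.02 in *KD1* and 0.39 in *KD2*. Those of chromosome 17 were 0.0085 and 0.28 over 697 genes. Around *Cbx7* the medians were -0.10 and -0.13 over 77 genes, beside -0.16 and -0.17 over 586 genes of chromosome 15. The neighbour of *Cbx7*, *Pdgfb*, rose in both lines (1.37 and 1.78, adjusted p = 7.06e-07 and 3.17e-08). What the place of these genes contributes to their change was not tested.

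*KD2* replicate 3 departed from the other *KD2* cultures in opposite directions within the RING and PCGF pairs. On the log2 scale it lay -0.37 from their mean for *Bmi1* and 0.32 for *Pcgf2*, and 0.45 for *Ring1* and -0.40 for *Rnf2*, while replicates 1 and 2 differed by 0.045 to 0.086 for these genes. The departure was not limited to these pairs. It was 0.10 for *Phc1* and 0.29 for *Phc2*, both upwards, and 0.13, 0.27 and 0.22 for *Cbx2*, *Cbx7* and *Cbx8*. Replicates 1 and 2 differed there by 0.047, 0.074, 0.015, 0.019 and 0.12.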
